A study of Mus musculus with 8 samples.

Results

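The 7 chemokine receptors described here are Ccr1, Ccr2, Ccr7, Cxcr4, Cx3cr1, Ackr3 and Ccrl2, followed in mouse peritoneal macrophages cultured with or without histidine-rich glycoprotein (HRG), a glycoprotein of blood plasma. They were chosen by gene symbol, each was paired with a single row of the array, and all 7 were measured, among 19938 genes in all. Macrophages had been washed from the peritoneal cavity of 10 wild-type C57/Bl6 mice, pooled, held overnight in RPMI with fetal calf serum and then given recombinant HRG at 1 µg/ml (HRG samples) or left untreated (basal samples) for 6 h or 24 h. The 4 groups were HRG 6 h, basal 6 h, HRG 24 h and basal 24 h, with 2 samples each and 1 Affymetrix array per sample. All samples came from that 1 pool and the labels do not say how far the duplicates were handled apart, so the spread behind each p-value is that of these duplicates and may be purely technical.

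Chemokine receptors are membrane receptors with which leukocytes read gradients of chemokines. CCR1, CCR2, CCR7, CXCR4 and CX3CR1 are classical members that couple to inhibitory G proteins and drive migration. ACKR3 and CCRL2 are atypical: ACKR3 binds and removes CXCL12 and signals through arrestin, and CCRL2 binds chemerin and presents it to other cells without driving migration itself. In the peritoneum, CCR2 marks monocytes and their young descendants, CX3CR1 marks monocytes and some resident macrophages, and CCR7 marks maturing dendritic cells and is also carried by lymphocytes.

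Values are log2 expression levels of the deposited table, in which a difference of 1 is a 2-fold change. Differences are HRG minus basal, or 24 h minus 6 h, each with the standard error of a limma fit over all genes. A gene is said to have risen or fallen where its p, adjusted by Benjamini-Hochberg over the 19938 genes, was under 0.05. Levels of different genes come from different probes and are not compared. Medians of the arrays lay between 7.18 and 7.29 and their lower quartiles between 5.85 and 6.00, so their distributions were not identical. Of the macrophage markers, Adgre1, which encodes F4/80, lay between 13.38 and 13.63, and Csf1r, the receptor for macrophage colony-stimulating factor, between 13.06 and 13.27. Gata6, the transcription factor of large peritoneal macrophages, lay between 10.02 and 10.84. Some markers of other cells had signal too, while others of the same lists were dim. The mast cell marker Cpa3 lay between 10.27 and 11.73 and the B cell marker Cd79b between 9.77 and 10.69. The purity of the macrophages was not tested.

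RefSeq promoter windows (GRCm38.p6, 250 bases before to 50 after the start site) were found for 6 of the 7 receptors and not for Ccr7. Shown are those of the 4 receptors whose transcripts rose with HRG at 24 h, so that their start regions can be compared. They lie at chr9:123968643-123968942 on the minus strand (Ccr1), chr1:128592250-128592549 on the minus strand (Cxcr4), chr1:90203730-90204029 on the plus strand (Ackr3) and chr9:111057469-111057768 on the minus strand (Ccrl2, the first of 3 overlapping windows). They are given 5′ to 3′, with capitals for matches to the searched motifs.
Ccr1 promoter: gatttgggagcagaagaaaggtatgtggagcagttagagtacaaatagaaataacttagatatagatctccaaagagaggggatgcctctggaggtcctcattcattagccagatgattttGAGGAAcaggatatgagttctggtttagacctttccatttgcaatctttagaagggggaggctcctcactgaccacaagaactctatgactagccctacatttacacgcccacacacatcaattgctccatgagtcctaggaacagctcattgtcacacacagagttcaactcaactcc
Cxcr4 promoter: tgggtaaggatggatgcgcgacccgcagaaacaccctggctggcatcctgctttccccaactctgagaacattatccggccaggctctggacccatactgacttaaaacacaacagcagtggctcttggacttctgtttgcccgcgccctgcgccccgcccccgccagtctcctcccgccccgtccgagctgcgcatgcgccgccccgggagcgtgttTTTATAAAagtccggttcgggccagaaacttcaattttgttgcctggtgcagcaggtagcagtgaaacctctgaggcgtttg
Ackr3 promoter: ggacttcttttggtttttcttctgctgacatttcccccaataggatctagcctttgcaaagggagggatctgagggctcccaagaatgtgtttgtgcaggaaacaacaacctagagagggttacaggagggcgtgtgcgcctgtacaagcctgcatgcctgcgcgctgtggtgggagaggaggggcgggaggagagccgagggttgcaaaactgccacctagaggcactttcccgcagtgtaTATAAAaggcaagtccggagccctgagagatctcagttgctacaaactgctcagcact
Ccrl2 promoter: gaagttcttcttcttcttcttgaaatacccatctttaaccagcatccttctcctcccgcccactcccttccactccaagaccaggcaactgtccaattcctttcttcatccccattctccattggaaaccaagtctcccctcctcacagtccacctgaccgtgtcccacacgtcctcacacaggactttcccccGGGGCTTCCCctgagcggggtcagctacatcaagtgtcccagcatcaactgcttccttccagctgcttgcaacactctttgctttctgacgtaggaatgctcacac

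Motifs were searched on both strands: the PU box bound by PU.1 (GAGGAA), the TATA box (TATAAA), the AP-1 site (TGANTCA), a loose interferon response element (GAAA, any 2 bases, GAAA) and the κB consensus bound by NF-κB. The Ccrl2 window held a κB consensus match at position -56 from the start site, a motif that 4.5% of 32851 RefSeq windows of this length hold. The Ccr1 window held a PU box at position -129, as 28.3% of windows hold it. Cxcr4 had TATA boxes on both strands at positions -30 and -32, which overlap in the capitals above, and Ackr3 had one at position -8. Of all windows, 13.6% hold that TATA box. The AP-1 site (7.8% of windows) and the interferon response element (3.4% of windows) were in none of the 8 windows of the 6 receptors. The κB consensus was in 1 of the 8, and a looser form of it (GGG, any 5 bases, CC, in 50.8% of all windows, not capitalised) matched Ccr1, Cx3cr1 and the first Ccrl2 window. No motif of this set was in all 4 windows shown, and a match describes these letters only.

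The first comparison asked what HRG did to the receptors at 6 h. Ccr7, the receptor for CCL19 and CCL21 that guides cells to lymph nodes, fell, and it was the member with the lowest adjusted p. It stood at 10.15 and 10.09 in HRG 6 h samples, against 10.73 and 10.60 in basal 6 h samples. The groups did not overlap, and both HRG samples were the lower. The difference was -0.54 ± 0.11 (1.45-fold lower, limma adjusted p = 0.0384). Ccrl2, the chemerin-binding atypical receptor, stood at 8.89 and 8.88 in HRG 6 h samples, against 9.48 and 9.13 in basal 6 h samples. Both HRG values again lay below both basal values, yet the basal pair was wide, and the difference of -0.42 ± 0.12 did not pass (limma adjusted p = 0.144).

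The other 5 receptors did not pass at 6 h. Cx3cr1, the receptor for fractalkine, was at 7.71 and 7.78 in HRG samples, against 7.61 and 7.58 in basal samples, a difference of 0.15 ± 0.096 without overlap (limma adjusted p = 0.652). Ackr3 was at 6.60 and 6.40 in HRG samples, against 6.18 and 6.41 in basal samples, so the groups overlapped, and its difference was 0.20 ± 0.12. Differences of the remaining 3 were 0.05 ± 0.11 for Ccr1, -0.07 ± 0.098 for Ccr2 and -0.01 ± 0.090 for Cxcr4. Cxcr4 was at 9.70 and 9.72 in HRG samples, against 9.70 and 9.74 in basal samples, which overlapped. Its 95% confidence interval ran from -0.21 to 0.19.

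Thus 0 of the 7 rose, 1 fell and 6 did not pass at 6 h, where 1.25% of all genes were called and 0.818% fell. Groups of 3 of the 7 did not overlap, against 38.3% of all genes, with HRG higher for 1 (20.0% of all genes) and lower for 2 (18.3% of all genes). The median difference of the 7 was -0.01, beside 0.02 over all genes. The Ccr7 call rested on every array of the comparison and on the spread of others: without HRG 6 h replicate 1 or 2 its difference was -0.57 or -0.51 (limma adjusted p = 0.182 or 0.329), without basal 6 h replicate 1 or 2 it was -0.47 or -0.60 (0.201 or 0.054), without either HRG 24 h array it stayed at -0.54 (0.0543), and with only the 4 arrays compared limma gave an adjusted p of 0.056. The Ccrl2 difference depended on which basal 6 h array was kept: it was -0.24 without replicate 1 (limma adjusted p = 0.585) and -0.59, which passed, without replicate 2 (0.0369).

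**Figure D1:**
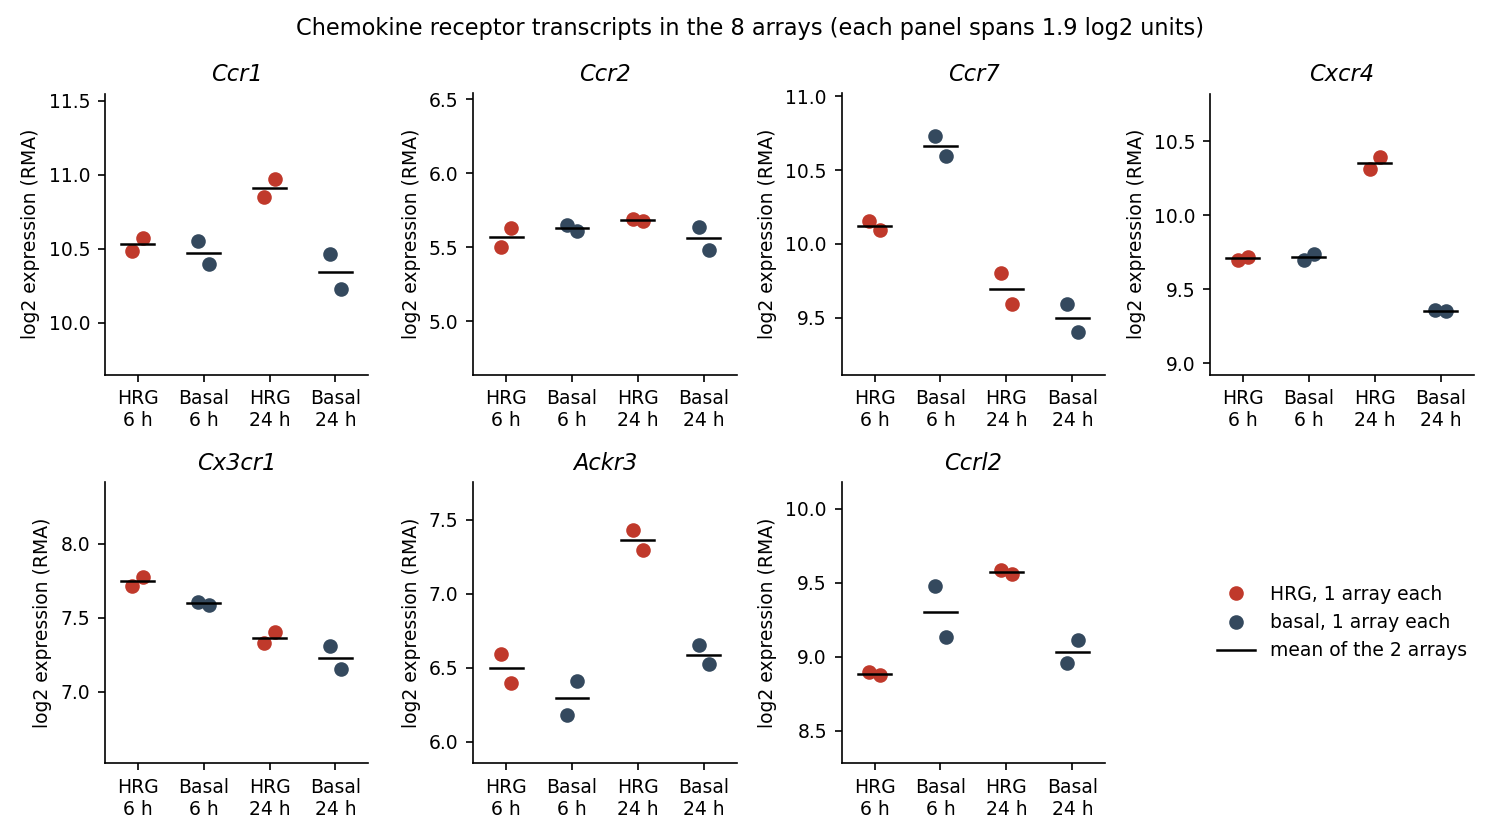
Log2 expression (RMA) of the 7 chemokine receptors in each of the 8 arrays, by group, with points for arrays and a bar for the mean of the 2 arrays. Each panel has its own level but the same span. Ccr1, Cxcr4, Ackr3 and Ccrl2 were highest in HRG 24 h samples, while Ccr7 was highest in basal 6 h samples.

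At 24 h, 4 of the 7 receptors rose with HRG, 0 fell and 3 did not pass. Cxcr4, the receptor for CXCL12 that retains leukocytes in bone marrow and tissues, changed most. Its level was 10.31 and 10.39 in HRG 24 h samples, against 9.36 and 9.35 in basal 24 h samples. Both pairs were tight and lay far apart, with a difference of 1.00 ± 0.090 (2.00-fold, limma adjusted p = 0.00011), which ranked 105 among 19938 genes by absolute size. Ackr3, which shares the ligand CXCL12 with Cxcr4, was at 7.43 and 7.30 in HRG 24 h samples, against 6.66 and 6.52 in basal 24 h samples. It rose without overlap by 0.78 ± 0.12 (1.71-fold, limma adjusted p = 0.00293).

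Ccr1, a receptor for CCL3, CCL5, CCL6, CCL7 and CCL9, stood at 10.85 and 10.97 in HRG 24 h samples, against 10.46 and 10.22 in basal 24 h samples. Its rise was 0.57 ± 0.11 (1.48-fold, limma adjusted p = 0.0133), and the groups did not overlap. Ccrl2 was at 9.58 and 9.56 in HRG 24 h samples, against 8.96 and 9.11 in basal 24 h samples. It rose by 0.54 ± 0.12 (1.45-fold, limma adjusted p = 0.0264), also without overlap.

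The 3 receptors that did not pass at 24 h had positive differences as well. Ccr7 was at 9.80 and 9.59 in HRG samples, against 9.60 and 9.41 in basal samples, overlapping by a narrow margin (0.20 ± 0.11, 95% confidence interval -0.04 to 0.44). Cx3cr1 was at 7.33 and 7.40 in HRG samples, against 7.31 and 7.16 in basal samples (0.13 ± 0.096, interval -0.07 to 0.34). Ccr2, the receptor for CCL2 and CCL7, was at 5.69 and 5.67 in HRG samples, against 5.64 and 5.48 in basal samples (0.12 ± 0.098, interval -0.09 to 0.34). The Ccr2 row was dim, among the lowest 30% of genes by mean level, and its 8 values spanned only 5.48 to 5.69.

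Over all genes at 24 h, 3.48% were called and 2.43% rose. Groups of 6 of the 7 receptors did not overlap, all 6 with HRG higher, against 40.2% of all genes in either direction and 19.1% with HRG higher. The median difference of the 7 was 0.54, beside -0.02 over all genes. Leaving out single arrays spared only the Cxcr4 call in full, whose difference stayed between 0.96 and 1.04. Without HRG 24 h replicate 1, Ackr3 (0.71, limma adjusted p = 0.0586), Ccr1 (0.63, 0.0762) and Ccrl2 (0.52, 0.216) no longer passed. Without HRG 24 h replicate 2, Ccr1 (0.51, limma adjusted p = 0.121) and Ccrl2 (0.55, 0.128) did not pass. Without basal 24 h replicate 2 the same held for Ccr1 (0.45, limma adjusted p = 0.146) and Ccrl2 (0.61, 0.0699), and without basal 24 h replicate 1 for Ccrl2 (0.46, 0.152).

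**Figure D2:**
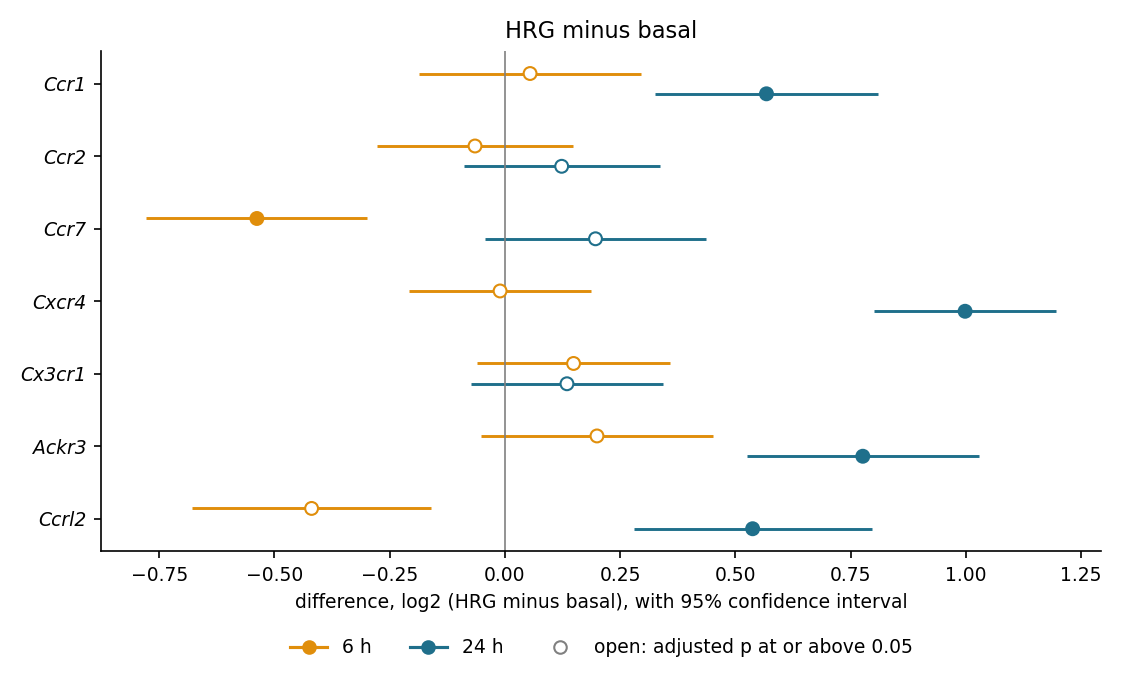
Difference in log2 expression, HRG minus basal, of each receptor at 6 h and at 24 h, with 95% confidence intervals of the limma fit (2 arrays per group). Filled points passed an adjusted p of 0.05: Ccr7 at 6 h (-0.54), and Cxcr4 (1.00), Ackr3 (0.78), Ccr1 (0.57) and Ccrl2 (0.54) at 24 h.

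Whether the response to HRG differed between the times was tested as the difference of both effects, 24 h minus 6 h. The effect on Cxcr4 was greater at 24 h by 1.01 ± 0.13 (limma adjusted p = 0.00424), with -0.01 at 6 h and 1.00 at 24 h. For Ccrl2 the effects had opposite signs, -0.42 at 6 h and 0.54 at 24 h, and differed by 0.96 ± 0.17 (limma adjusted p = 0.0183). Ccr7 likewise stood at -0.54 at 6 h and 0.20 at 24 h, a difference of 0.73 ± 0.16 (limma adjusted p = 0.0400). Across all genes, 1.48% were called in this test and 1.02% upward, against 3 of the 7 receptors, all upward.

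For the other 4 receptors the difference of effects did not pass, although it was of some size for Ackr3 (0.58 ± 0.16, limma adjusted p = 0.132) and Ccr1 (0.51 ± 0.16, 0.172). It was 0.19 ± 0.14 for Ccr2 and -0.01 ± 0.14 for Cx3cr1, whose interval ran from -0.31 to 0.28. The Cxcr4 call held without any single array (0.97 to 1.05). The Ccrl2 call was lost without HRG 6 h replicate 1 (0.97, limma adjusted p = 0.0599) or 2 (0.95, 0.0783) and without HRG 24 h replicate 1 (0.94, 0.0999) or 2 (0.97, 0.0574). Ccr7 lost its call without basal 6 h replicate 1 (0.67, limma adjusted p = 0.105), basal 24 h replicate 2 (0.64, 0.147), HRG 6 h replicate 1 (0.76, 0.112) or 2 (0.70, 0.169), and HRG 24 h replicate 1 (0.63, 0.215) or 2 (0.84, 0.055).

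Of 9 large macrophage markers 1 rose in the test of the difference of effects, Timd4 (0.74, limma adjusted p = 0.0422), and the median of the list was 0.17. The Timd4 call was lost when single arrays were left out, with a difference of 0.60 without HRG 24 h replicate 1. Neutrophil markers (0 of 6, median -0.06) and eosinophil markers (0 of 3, median -0.08) had no call by limma. Markers of other cells, in 5 lists, had calls in the same direction as the receptors. Of 7 B cell markers 4 rose in this test, among them Ms4a1 (1.17 ± 0.21) and Cd79b (0.87 ± 0.17), with a median of 0.86, and of 9 dendritic cell markers 3 rose, led by Cd83 (1.23 ± 0.14), with a median of 0.74. Monocyte-derived and small macrophage markers rose in 2 of 8, mast cell markers in 2 of 6, and T and NK cell markers in 1 of 9 (Cd3g, 1.48 ± 0.30), and 0 of these 5 lists had a marker that fell. Of these 12 calls only that of Cd83 still passed without HRG 24 h replicate 1 or without HRG 6 h replicate 2, 3 passed without HRG 6 h replicate 1 or without basal 24 h replicate 2, 8 without basal 24 h replicate 1 and 7 without basal 6 h replicate 1. The part of these cells in the receptor values was not tested.

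The time comparisons share arrays with those of HRG, so their values are set beside them and not counted as further support. In HRG samples, Ackr3 rose between 6 h and 24 h by 0.87 ± 0.12 (1.83-fold, limma adjusted p = 0.000746), Ccrl2 by 0.69 ± 0.12 (1.61-fold, 0.00422) and Cxcr4 by 0.64 ± 0.090 (1.56-fold, 0.00106). Ccr7 fell by 0.43 ± 0.11 and Cx3cr1 fell by 0.38 ± 0.096 (limma adjusted p = 0.0356 and 0.0320). Ccr1 was at 0.38 ± 0.11 (limma adjusted p = 0.0597) and Ccr2 at 0.12 ± 0.098. Of the 7, 3 rose, 2 fell and 2 did not pass, where 7.28% of all genes were called, 4.41% upward and 2.87% downward.

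In basal samples, Ccr7 showed the largest time course of the 7, falling by 1.16 ± 0.11 (2.24-fold lower at 24 h, limma adjusted p = 6.04e-05). Cxcr4 and Cx3cr1 each fell by 0.37, with SE 0.090 and 0.096 (limma adjusted p = 0.0242 and 0.0321). Ackr3 (0.29 ± 0.12), Ccrl2 (-0.27 ± 0.12), Ccr1 (-0.13 ± 0.11) and Ccr2 (-0.07 ± 0.098) did not pass. Here 9.28% of all genes were called, 3.80% upward and 5.48% downward, against 3 of the 7, all downward. Groups did not overlap for 7 of 7 in HRG samples, against 49.2% of all genes, with 24 h higher for 5 (22.6% of all genes) and lower for 2 (26.6%). In basal samples they did not overlap for 5 of 7, against 45.2% of all genes, with 24 h higher for 1 (23.5%) and lower for 4 (21.7%).

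Markers of other cells and of large macrophages moved over the same time in basal samples, where Ccr7, Cxcr4 and Cx3cr1 fell. Of 7 B cell markers 6 fell, led by Ms4a1 (-1.10 ± 0.15) and Pax5 (-0.86 ± 0.13), and their mean log2 level was 7.94 to 8.34 at 24 h, against 8.85 to 8.86 at 6 h. Of 9 dendritic cell markers 5 fell, led by Cd83 (-1.37 ± 0.10) and Fscn1 (-0.70 ± 0.12), and 1 rose, Clec9a (1.35 ± 0.13), with 7.45 to 7.49 at 24 h, against 7.66 to 7.74 at 6 h. Of 8 monocyte-derived and small macrophage markers 4 fell, led by Ms4a4c (-1.68 ± 0.16) and Irf4 (-1.46 ± 0.13), with 7.49 to 7.64 at 24 h, against 8.21 to 8.29 at 6 h. Mast cell markers fell in 2 of 6, and 0 of 9 T and NK cell markers were called by limma. Of 9 large macrophage markers 2 fell, Timd4 (-0.52) and Gata6 (-0.50), and 1 rose, Cd14 (0.42). The Timd4 call was lost without basal 6 h replicate 1 (-0.45) or basal 24 h replicate 2 (-0.47), and the Gata6 call without basal 24 h replicate 1 (-0.43). Cd14 did not pass with only the 4 basal arrays (limma adjusted p = 0.0763) or with each array centred on its median (0.0595). Its call was also lost without basal 6 h replicate 2 (0.31) or basal 24 h replicate 1 (0.49) or 2 (0.35). In HRG samples over time, where Ccr7 and Cx3cr1 also fell, 0 of 7 B cell markers were called by limma and 2 of 9 dendritic cell markers rose. Of the 8 monocyte-derived and small macrophage markers 2 rose and 3 fell there, and of 9 large macrophage markers 2 rose and 1 fell. T and NK cell markers rose in 2 of 9 and mast cell markers in 2 of 6. These T and NK cell and mast cell calls were lost without HRG 24 h replicate 1. So were those of the small macrophage markers F13a1, Folr2, Ms4a4c and Retnla, the large macrophage marker Itgam and the dendritic cell marker Dpp4. The part of these cells in the receptor values was not tested.

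Several of these time calls depended on single arrays. The fall of Cx3cr1 in HRG samples was lost without HRG 6 h replicate 1 (-0.41, limma adjusted p = 0.136) or 2 (-0.35, 0.207) and HRG 24 h replicate 1 (-0.34, 0.192) or 2 (-0.42, 0.113), and that of Ccr7 without the same arrays in the same order (-0.40, -0.46, -0.53 and -0.32, limma adjusted p = 0.213, 0.128, 0.0572 and 0.274) and, narrowly, with each array centred on its median (-0.42, 0.0506). In basal samples, the fall of Cxcr4 was lost without basal 24 h replicate 1 (-0.37, limma adjusted p = 0.101) or 2 (-0.36, 0.11) and basal 6 h replicate 1 (-0.39, 0.0667) or 2 (-0.34, 0.0748). The fall of Cx3cr1 there was lost without basal 24 h replicate 2 (-0.29, limma adjusted p = 0.212), basal 6 h replicate 1 (-0.35, 0.121) or 2 (-0.38, 0.0671), or either HRG 6 h array (-0.37, 0.0544). With only the 4 basal arrays, neither passed (limma adjusted p = 0.0812 for Cxcr4 and 0.0952 for Cx3cr1). Ccrl2 in basal samples was at -0.10 without basal 6 h replicate 1 (limma adjusted p = 0.825) and at -0.45, which passed, without basal 6 h replicate 2 (0.0331). Ccr1 passed in HRG samples without any 1 of the basal arrays (0.38 each, limma adjusted p = 0.0452 or 0.0476). The fall of Ccr7 in basal samples and the rises of Ackr3, Ccrl2 and Cxcr4 in HRG samples passed without each of the 8 arrays.

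**Figure D3:**
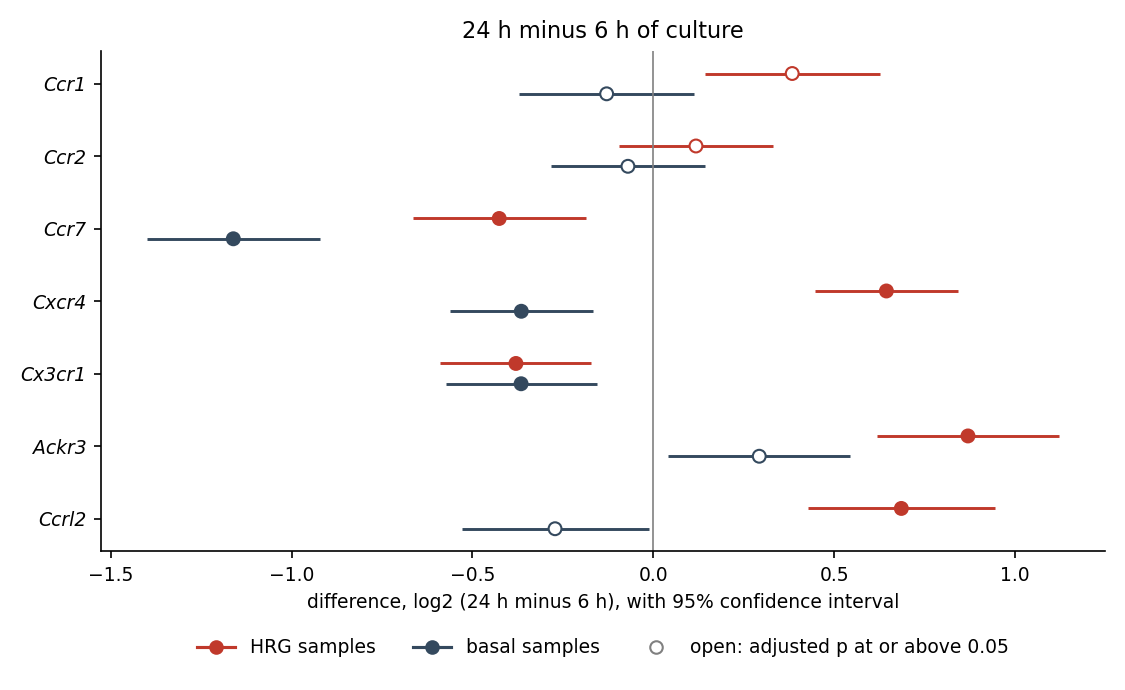
Difference in log2 expression, 24 h minus 6 h, of each receptor in HRG samples and in basal samples, with 95% confidence intervals of the limma fit (2 arrays per group). Filled points passed an adjusted p of 0.05. Cxcr4 had a positive difference in HRG samples (0.64) and a negative one in basal samples (-0.37), while Cx3cr1 had nearly equal negative differences in both (-0.38 and -0.37).

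The 4 group means of each receptor (mean ± SD, n = 2) were then put in order. Cxcr4 averaged 9.71 ± 0.017 in HRG 6 h and 9.72 ± 0.030 in basal 6 h samples, which overlapped, and 10.35 ± 0.058 in HRG 24 h against 9.35 ± 0.0038 in basal 24 h samples, so the groups at 24 h were its highest and its lowest. Ccrl2 averaged 8.89 ± 0.012 in HRG 6 h against 9.30 ± 0.25 in basal 6 h samples, and 9.57 ± 0.018 in HRG 24 h against 9.03 ± 0.11 in basal 24 h samples. Its highest group was HRG 24 h and its lowest HRG 6 h, and no pair of its groups overlapped, although the basal 6 h pair was wide (SD 0.25).

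Ackr3 stood apart in HRG 24 h samples (7.37 ± 0.096, against 6.59 ± 0.094 in basal 24 h samples), and its 6 h means were 6.50 ± 0.14 with HRG and 6.30 ± 0.17 without. The HRG 6 h values overlapped both neighbours in that order. Ccr1 likewise had a single high group, 10.91 ± 0.085 in HRG 24 h against 10.34 ± 0.17 in basal 24 h samples, with 10.53 ± 0.067 in HRG 6 h and 10.47 ± 0.11 in basal 6 h samples, and neighbours below the highest overlapped. Ccr7 averaged 10.12 ± 0.042 in HRG 6 h against 10.66 ± 0.094 in basal 6 h samples, and 9.70 ± 0.15 in HRG 24 h against 9.50 ± 0.14 in basal 24 h samples. It was highest in basal 6 h samples, then in HRG 6 h samples, and the groups at 24 h overlapped below them. Cx3cr1 averaged 7.74 ± 0.047 in HRG 6 h against 7.60 ± 0.018 in basal 6 h samples, and 7.36 ± 0.051 in HRG 24 h against 7.23 ± 0.11 in basal 24 h samples, so both groups at 6 h lay above both at 24 h. Ccr2 had means of 5.68 ± 0.013 in HRG 24 h and 5.56 ± 0.11 in basal 24 h samples, and no comparison of it passed, although its HRG 24 h values lay above all of its HRG 6 h, basal 6 h and basal 24 h values.

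Correlations among the receptors over the 8 arrays are given as a description, since all values share the same arrays, times and treatments. Ccr1 and Cxcr4 correlated at r = 0.926, and Ackr3 with Cxcr4 at 0.777 and with Ccr1 at 0.768. Ccr1 and the dim Ccr2 were at 0.757, Ccr7 and Cx3cr1 at 0.736, and Ccrl2 and Cxcr4 at 0.732. Ccr7 and Ackr3 ran against each other (r = -0.571).

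Among 17025 other named genes, those most like each receptor were found by Pearson correlation over the 8 arrays. Genes above r = 0.95 numbered 78 for Ccr7, 63 for Ackr3, 34 for Cx3cr1, 17 for Cxcr4, 10 for Ccr1 and 7 for Ccrl2. The genes named below are therefore only the first of several that ran alike. For Cxcr4 they were Fcgr4, an Fc receptor for IgG (r = 0.974), the actin regulator Marcks (0.974) and the complement protease C1s1 (0.973). For Ackr3 they were Ap2s1, a clathrin adaptor subunit (0.987), the galectin Lgals1 (0.987) and Ptger4, a prostaglandin E2 receptor (0.986). Ccr7 was followed most closely by Parp8 (0.997), the DNA polymerase subunit Rev3l (0.992) and the integrin subunit Itga4 (0.991). Cx3cr1 was followed by the interferon-stimulated genes Oasl1 (0.989), Ifit3 (0.987) and Ifit2 (0.981). Ccr1 was closest to Tmx4 (0.979), the RNA ligase Rtcb (0.973) and Erich2 (0.964), and Ccrl2 to Prorsd1 (0.968), the fatty acid binding protein Fabp4 (0.967) and Hmgn5 (0.965). The dim Ccr2 had lower likeness, with Mmp1a (0.944), Abcc9 (0.913) and Bcl11a (0.907), and 0 genes above r = 0.95. Without any 1 array, the lowest of these 21 values were 0.831 for Bcl11a and 0.838 for Abcc9, and 0.917 or more for the others.

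The ligands of the receptors were followed as a list of 13, of which 12 were measured. With HRG at 24 h, 4 of the 12 rose, 0 fell and 8 did not pass, with a median of 0.07. The CCR1 ligands Ccl6 (1.43 ± 0.24, limma adjusted p = 0.00529) and Ccl9 (0.75 ± 0.14, 0.00879) rose in this comparison. So did Ccl7 (0.50 ± 0.10, 0.0165), which acts on CCR1 and CCR2, and the CCR2 ligand Ccl2 (0.44 ± 0.11, 0.0459). Ccl6 and Ccl9 also rose over time in basal samples, by 1.45 and 0.74. Ccl7 fell there by 1.12 (limma adjusted p = 4.65e-05). Its HRG 24 h values of 12.13 and 12.21 lay below its HRG 6 h (12.62 and 12.40) and basal 6 h values (12.75 and 12.82). Ccl6 was at 12.20 and 12.11 in HRG 24 h samples, against 11.17 and 10.28 in basal 24 h samples, so its basal arrays differed widely. The ligand of CXCR4 and ACKR3, Cxcl12, was at 6.25 and 6.35 in HRG 24 h samples, against 6.28 and 6.31 in basal 24 h samples. At 6 h, 0 of the 12 ligands rose or fell by limma (median -0.03), as Ccl7 at -0.27 ± 0.10 did not pass. Without HRG 24 h replicate 1 all 4 ligand calls were lost, with limma adjusted p of 0.0772 for Ccl6 (1.38), 0.103 for Ccl9 (0.75), 0.102 for Ccl7 (0.54) and 0.162 for Ccl2 (0.50). Those of Ccl9, Ccl7 and Ccl2 were also lost without HRG 24 h replicate 2 (limma adjusted p = 0.0626, 0.13 and 0.283) and without basal 24 h replicate 2 (0.062, 0.113 and 0.367), that of Ccl7 without basal 24 h replicate 1 (0.0598), and that of Ccl2 without either HRG 6 h array (0.0746). The Ccl2 call was lost as well with quantile normalization renewed over the arrays (0.40, limma adjusted p = 0.0632).

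Of 17 other chemokine and chemerin receptors, Ccr6, the CCL20 receptor carried by B cells, rose with HRG at 24 h (0.78 ± 0.13, limma adjusted p = 0.00508), 0 fell and 16 did not pass, with a median of 0.01. At 6 h, Cmklr1, the signalling receptor for chemerin, rose by 0.58 ± 0.10 (limma adjusted p = 0.0174) where Ccrl2, which binds the same ligand, was at -0.42. Its ligand Rarres2 was at 6.37 and 6.36 in HRG 6 h samples, against 6.16 and 6.56 in basal 6 h samples. In basal samples over time 3 fell, Cxcr5 (-1.16 ± 0.16), Ccr6 (-0.98 ± 0.13) and Ccr9 (-0.57 ± 0.14), and 2 rose, led by Cmklr1 (0.60 ± 0.10), while 0 of the 17 were called in HRG samples over time by limma. The Ccr6 call at 24 h was lost without HRG 24 h replicate 1 and without basal 24 h replicate 2 (0.65 and 0.60, limma adjusted p = 0.0902 and 0.0537), and the Cmklr1 call at 6 h without any 1 of the 4 arrays compared (0.48 to 0.68, highest limma adjusted p = 0.19). The Ccr9 call was lost without basal 6 h replicate 1 (-0.34, limma adjusted p = 0.153) or either basal 24 h array (0.126 and 0.0542).

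Among 26 measured genes of receptor signalling and desensitisation, 3 rose with HRG at 24 h, 0 fell and 23 did not pass, with a median of 0.12. These were Rgs2 (1.33 ± 0.11, limma adjusted p = 5.23e-05) and Rgs18 (0.66 ± 0.14, 0.0237), which end G protein signals, and the G protein subunit Gng2 (0.54 ± 0.12, 0.0222). At 6 h, 0 rose, and Rgs1, another such regulator, fell by 1.04 ± 0.16 (limma adjusted p = 0.0126). Its effect of HRG differed between 24 h and 6 h by 1.22 ± 0.23 (limma adjusted p = 0.0265), and that of Rgs2 by 0.98 ± 0.15 (0.0105). The Rgs18 call was lost without any 1 of the 4 arrays at 24 h (highest limma adjusted p = 0.26), that of Gng2 without either basal 24 h array or HRG 24 h replicate 1 (highest 0.269), and that of Rgs1 at 6 h without basal 6 h replicate 1 or either HRG 6 h array (highest 0.101). Rgs2 at 24 h passed without each of the 8 arrays, but its difference of effects did not without HRG 24 h replicate 1 (0.85, limma adjusted p = 0.0584), and that of Rgs1 was lost without basal 6 h replicate 1 or any HRG array (highest 0.107).

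Markers of other peritoneal cells also moved with HRG. At 24 h, 3 of 7 measured B cell markers rose with HRG and 0 fell, led by Cd79a (0.98 ± 0.16), and their mean log2 level was 8.58 to 8.81 in HRG samples, against 7.94 to 8.34 in basal samples. Of 8 markers of monocyte-derived and small macrophages, 4 rose, led by F13a1 (1.42 ± 0.15), with mean levels of 8.14 to 8.28 in HRG samples, against 7.49 to 7.64 in basal samples. Of 9 dendritic cell markers, 2 rose, Itgax (1.00 ± 0.11) and Cd83 (0.53 ± 0.10), with 7.73 to 8.07 in HRG samples, against 7.45 to 7.49 in basal samples. The mean of 8.07 was that of HRG 24 h replicate 1, where Cd209a alone stood at 9.18, against 6.98 in replicate 2. Mast cell markers rose in 3 of 6, with 9.42 to 9.74 in HRG samples, against 8.90 to 9.19 in basal samples. T and NK cell markers (0 of 9 called by limma, 6.68 to 6.69 in HRG samples, against 6.48 to 6.73 in basal samples) overlapped between the groups, and of 9 large macrophage markers 1 rose, Timd4 (0.74 ± 0.11). Without HRG 24 h replicate 1, 0 of the 3 B cell calls (highest limma adjusted p = 0.343), 0 of the 3 mast cell calls (0.299), 2 of the 4 small macrophage calls (0.12), 1 of the 2 dendritic cell calls (0.118) and not the Timd4 call (0.0591) still passed. Without basal 24 h replicate 1, 0 of the 3 mast cell calls passed (highest limma adjusted p = 0.153). Without basal 24 h replicate 2, 1 of the 3 B cell calls, 2 of the 3 mast cell calls, 3 of the 4 small macrophage calls and 1 of the 2 dendritic cell calls passed. Without HRG 24 h replicate 2, 2 of the 3 B cell calls and 1 of the 2 dendritic cell calls passed, and without either HRG 6 h array 2 of the 3 B cell calls.

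At 6 h, where Ccr7 fell, 2 of 9 dendritic cell markers fell (Cd83 at -0.69 ± 0.10 and Dpp4 at -0.58 ± 0.11), with mean levels of 7.53 to 7.56 in HRG samples, against 7.66 to 7.74 in basal samples. In the same comparison 1 of 7 B cell markers fell (Cd79b, -0.59 ± 0.12), with 8.52 to 8.55 in HRG samples, against 8.85 to 8.86 in basal samples, and 2 of 9 T and NK cell markers fell (Cd3g at -1.11 ± 0.21 and Cd28 at -0.60 ± 0.11), with 6.22 to 6.34 in HRG samples, against 6.53 to 6.76 in basal samples. Neutrophil markers (0 of 6) and eosinophil markers (0 of 3) had no call by limma at either time. Each of these 5 marker calls at 6 h was lost without HRG 6 h replicate 2 (limma adjusted p between 0.101 for Cd83 and 0.329 for Dpp4), and each without at least 1 basal 6 h array. In such bulk samples, fewer cells of a type and less RNA per cell cannot be told apart, and the part of these cells in the receptor values was not tested here either.

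**Figure D4:**
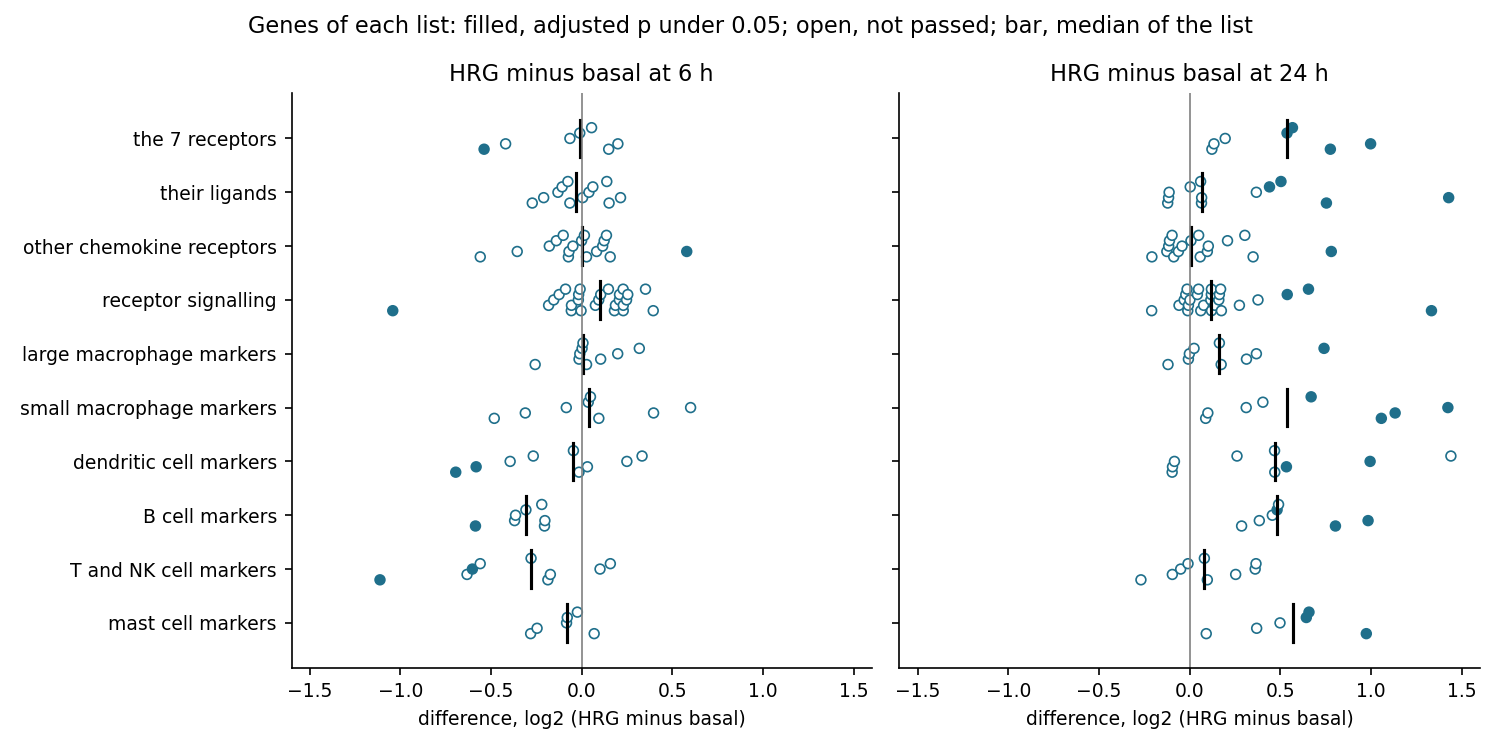
Differences in log2 expression, HRG minus basal, of every measured gene of 10 lists at 6 h (left) and 24 h (right). Filled points passed an adjusted p of 0.05, open points did not, and a bar marks the median of the list. At 24 h the median was 0.54 for the 7 receptors, 0.07 for their ligands, 0.01 for other chemokine receptors and 0.12 for receptor signalling. Among marker lists it was 0.57 for mast cells, 0.54 for small macrophages, 0.48 for B cells and 0.47 for dendritic cells. It was 0.16 for large macrophages and 0.08 for T and NK cells.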

How the data were processed

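Total RNA of 8 samples was measured on Affymetrix arrays, 1 array per sample. The deposited values are on the log2 scale, 1 column per sample, and the submitters' processing notes name Affymetrix Expression Console, RMA (background correction, quantile normalization and probe summary) and limma, with versions not given in the sources used here. RMA values carry no counts, so precision rests on the number of arrays.

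Of 28853 rows, 21789 had 1 gene symbol in the platform annotation, 1621 had several and 5443 had none. Where a gene had several rows (999 genes), only its brightest by mean level was used, leaving 19938 genes. Symbols were updated through RefSeq gene IDs (21698 rows matched, 0 changed).

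All 8 arrays entered 1 linear model of the 4 groups in limma 3.58.1 in R 4.3.3 (lmFit, contrasts.fit, eBayes, two-sided), with 4 residual and 7.81 prior degrees of freedom. The 5 contrasts share arrays. On simulated data for HRG against basal at 24 h with 19938 genes, the fit called 63.2% of 1.5-fold and 99% of 2-fold changes. The simulated noise was independent between genes, with no deviation shared by an array, so these rates may not hold for the real arrays.

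The 7 receptors and all gene lists were chosen with earlier results of these data known. Every receptor is named in each comparison. From each other list, at most 4 genes per comparison that passed are named, those with the largest absolute difference. Cxcl12, Rarres2, Ccl7 at 6 h and the levels of Adgre1, Csf1r, Gata6, Cpa3, Cd79b and Cd209a fall outside that rule and were chosen after their values were seen. Likeness names the 3 genes with the highest Pearson correlation, leaving out predicted, clone-named, small RNA, odorant receptor and antigen receptor genes.

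Alternatives were a replicate block, a robust variance prior with trend, a renewed quantile normalization, centring on array medians, dropping the dimmest 30% of genes, averaging rows of a gene, separate fits of the 4 arrays concerned, and omission of each array in turn. A covariate for the arrays' lower quartile was chosen after seeing the data.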

Additional observations from a re-analysis of the deposited data

Results flagged for a closer look

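For 3 of the 7 receptors the effect of HRG differed between the times by the test of the difference itself, 24 h minus 6 h on the log2 scale, with 2 arrays per group and limma adjusted p over all genes. The difference of effects was 1.01 for Cxcr4 (1.0088, adjusted p = 0.00424), 0.96 for Ccrl2 (0.9568, adjusted p = 0.0183) and 0.73 for Ccr7 (0.7347, adjusted p = 0.0400). Ccrl2 and Ccr7 had effects of opposite sign at the times, but each passed at only 1 of them, and both of these calls of the difference were lost when single arrays were left out.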

How the results depend on the processing

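Of 35 receptor results, 22 stayed on their side of the threshold under every alternative. Of these, 18 also kept their direction, and 4 values near 0 that passed in no alternative changed sign in at least 1: Ccr1 at 6 h (-0.03 to 0.14), Cxcr4 at 6 h (-0.03 to 0.02), the difference of effects for Cx3cr1 (-0.09 to 0.06) and Ccr2 over time in basal samples (-0.15 to 0.01). No called value changed sign. Of 16 receptor calls, 6 were kept throughout and 10 were lost in at least 1 alternative. Of 94 calls of named list genes, 33 were kept and 61 were lost in at least 1 alternative, 8 of them through one that is no left-out array. With only the 4 arrays compared, 0 receptors were called at 6 h (1 in the full fit) and 1 in basal samples over time (3 in the full fit). Leaving out 1 array gave 0 to 1 receptors called at 6 h, 1 to 4 at 24 h, 1 to 3 for the difference of effects, 1 to 3 over time in basal samples and 3 to 6 over time in HRG samples.

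Over all genes, leaving out 1 array gave 21 to 287 calls at 6 h (249 in the full fit), 182 to 781 at 24 h (694), 56 to 404 for the difference of effects (294), 1124 to 1817 over time in basal samples (1851) and 529 to 1680 in HRG samples (1452). The fewest came without HRG 6 h replicate 2, HRG 24 h replicate 1 (at 24 h and for the difference), basal 24 h replicate 2 and HRG 6 h replicate 1. With trend and robust, 492 genes were called at 6 h and 547 for the difference. Only the 4 arrays compared gave 155 at 6 h. The lower quartile as a covariate, chosen after seeing the data, gave 518 at 6 h, 1099 at 24 h, 519 for the difference and 2518 over time in HRG samples. The cause was not tested.

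With the replicate number as a block, 1, 4, 3, 3 and 5 receptors were called in the 5 comparisons, as without it, and 242, 725, 362, 1860 and 1452 genes in all. The Ccl2 call at 24 h was lost with that block (0.44, limma adjusted p = 0.0538). Deviations of same-numbered arrays correlated positively in 3 of 6 pairs of groups (-0.331 to 0.411). The negative values all involved basal 24 h samples (-0.331, -0.283 and -0.201). A pairing numbered otherwise in that 1 group would look the same, so whether the samples were paired is not known. The fit on only 4 arrays has no counterpart for the difference of effects, and Ccr2 has no value where the dimmest 30% of genes were dropped. In simulated data with 2 arrays per group and independent noise, changes of about 1.5-fold were often missed.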
